A study of Drosophila melanogaster with 15 samples.

Results

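The antennal odorant-binding proteins described here are 10 genes of *Drosophila melanogaster* whose products are secreted in the third antennal segment, the main olfactory organ of the fly. They were taken as all probe sets whose gene symbol or synonym is lush, Obp83a (also Pbprp3), Obp83b (also Os-E), Obp69a, Obp28a, Obp19a, Obp19d, Obp84a, a10 or Os-C. The rule found 11 probe sets, and all 10 genes, of 11985 genes with a name on the array, were measured. The annotation of the platform names 9 of the genes with 10 probe sets, and the probe set of Obp83a was named through the study's own list of probe sets. The names were set with earlier results of these arrays known. Obp19a has 2 probe sets and is read by the one with the higher mean Signal.

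Transcripts were measured in whole males of Canton-S B, an isogenic line, with 5 Affymetrix arrays for each of 3 treatments. Flies of the 1st exposure were 3 to 5 days old and were collected immediately after they had passed through the inebriometer, a column filled with ethanol vapor from which flies elute when they lose postural control. Flies of the 2nd exposure were of the same age and line, had gone through a 1st exposure, and passed through the column again after 2 h, when they had developed tolerance. Control flies were of the same age and line, received no ethanol and were frozen without passing through the column. By the study's methods each array has a pool of males of its own, and the pools of the 3 treatments in a replicate were drawn from the same starting groups of flies. Exposed flies came from a set window around the peak elution time, which was later in the 2nd than in the 1st exposure. Ethanol, passage through the column, choice by elution time and, for the 2nd exposure, sampling 2 h later cannot be told apart. The results therefore describe 1 inbred line, 1 sex and the whole body, of which the antenna is a small part, and in such samples fewer cells of a type and less RNA per cell cannot be told apart.

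Odorant-binding proteins are small soluble proteins that support cells release into the fluid around the dendrites of olfactory neurons. They bind hydrophobic odorants and pheromones, and each kind of sensory hair (trichoid, basiconic or coeloconic sensillum) holds its own set. The protein encoded by lush is required for the response of trichoid neurons to the male pheromone cis-vaccenyl acetate and binds short-chain alcohols, ethanol among them. The products of a10, of the chemosensory protein family, and of Os-C are antennal secreted proteins outside the odorant-binding protein family.

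The deposited values are the Signal intensity of each probe set, on a linear scale, which the authors scaled per array. Every array had a trimmed mean of 500 (2% left out at each end), whereas the study's methods name a median intensity of 500. Median Signal ran from 130.1 to 132.8 after the 1st exposure, 138.8 to 142.1 after the 2nd exposure and 136.0 to 139.3 in control flies, and 22.3% to 27.2% of an array's values were under 20, where ratios are imprecise. In the 1st exposure, arrays 2 and 4 lay close together, with an SD of 0.176 for their log2 difference over the 10260 probe sets that averaged 100 Signal or more, as did control arrays 1 and 4 (0.186), while under 0.16% of their values were identical. The arrays of the 1st exposure formed 2 sets, with SDs of 0.270 to 0.337 between arrays 1 and 3 and the other 3, against 0.176 to 0.216 within the sets. Those of the 2nd exposure also formed 2 sets, with SDs of 0.291 to 0.318 between arrays 4 and 5 and the other 3, against 0.210 to 0.255 within the sets. Over all pairs of control arrays the SDs were 0.186 to 0.315, a range about as wide. The ratio of the 3′ to the 5′ probe set of actin, a measure of RNA quality, was 1.88 ± 0.197 after the 1st exposure, 1.65 ± 0.182 after the 2nd exposure and 2.35 ± 0.265 in control flies (SD, n = 5 arrays each), and its part in the results below was not tested. That of eIF-4a was 3.32 ± 0.468 after the 1st exposure, 3.16 ± 0.403 after the 2nd exposure and 3.93 ± 0.379 in control flies, and that of GAPDH was 2.57 ± 0.190 after the 1st exposure, 2.36 ± 0.198 after the 2nd exposure and 2.75 ± 0.218 in control flies. Within treatments, the deviations of these ratios correlated with the median deviation of the 10 genes at r = 0.03 for actin, -0.04 for eIF-4a and -0.25 for GAPDH over 15 arrays.

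Transcripts of the antennal odorant-binding proteins fell after both exposures to ethanol. After the 1st exposure 9 of the 10 genes were lower than in control flies at an adjusted p under 0.05, where 0.188% of all 13809 probe sets tested were lower, and Obp84a did not pass. After the 2nd exposure all 10 were lower, where 1.21% of all probe sets tested were. The median log2 fold change of the 10 genes was -1.97 after the 1st and -1.99 after the 2nd exposure, against medians over all probe sets tested of -0.02 after the 1st and -0.0002 after the 2nd exposure. In 9 of the 10 genes the change was over 2-fold after each exposure, whereas 1.45% of all probe sets were that much lower after the 1st and 0.775% after the 2nd exposure. The exception was Obp19d. For 9 of the 10 genes after either exposure, all 5 exposed arrays lay below all 5 control arrays, compared with 1.6% of all probe sets after the 1st and 2.05% after the 2nd exposure. The exception was Obp84a. When the close arrays (1st exposure 2 and 4, control 1 and 4) were averaged and counted as 1 array each, lush alone passed after the 1st exposure, with an adjusted p of 0.0287. The log2 fold changes of the other 9 genes were then -2.33 (Obp19a) to -0.54 (Obp19d), with adjusted p from 0.0519 (Obp83a) to 0.233 (Obp84a), and 8 probe sets in all passed instead of 50 (0.362%).

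**Figure D1:**
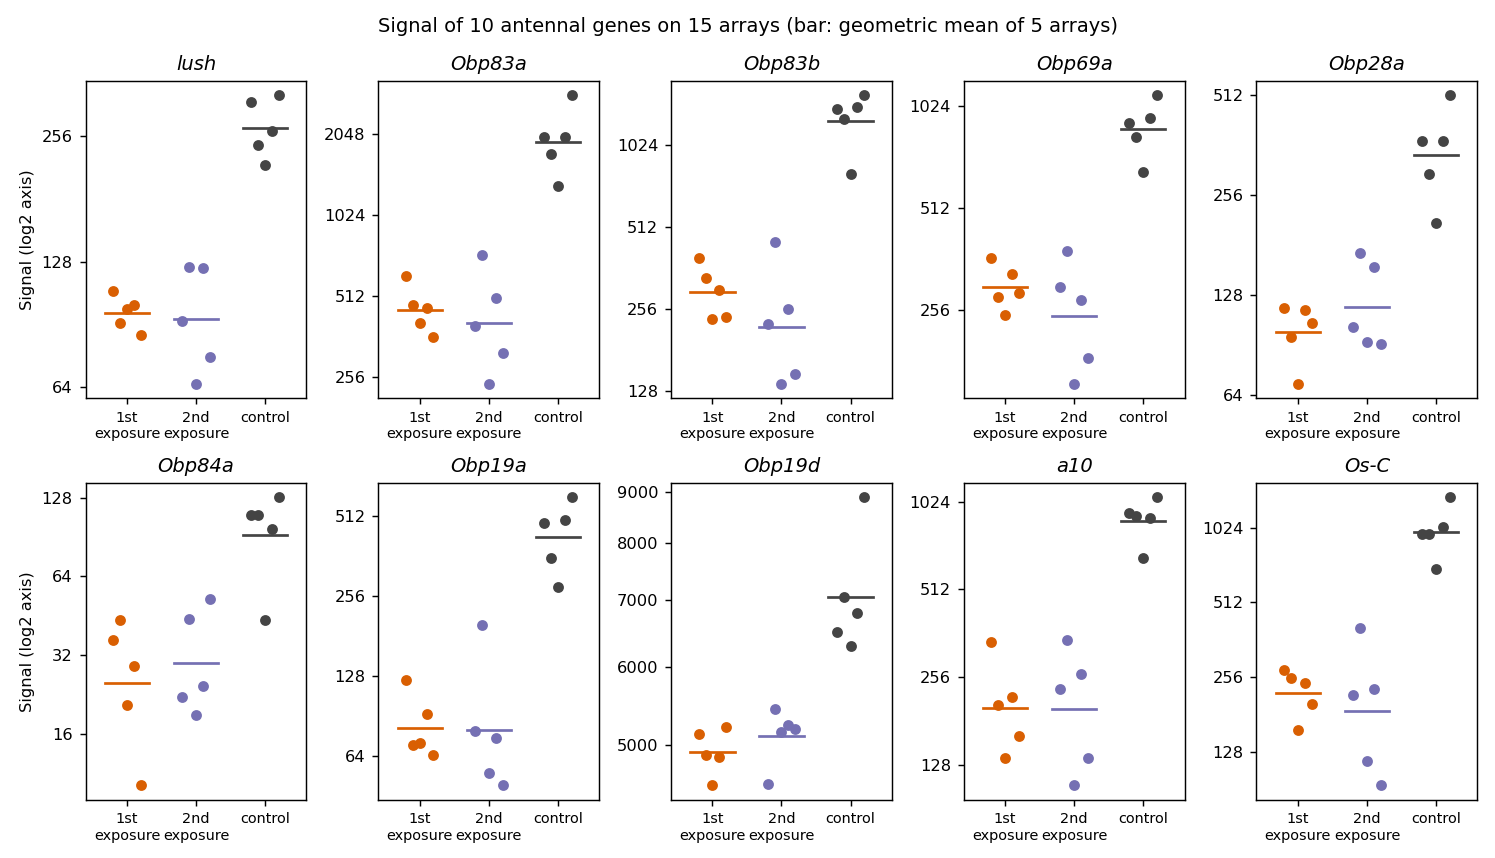
Signal of the 10 genes on each of the 15 arrays, on a log2 axis, by treatment; each point is 1 array and each bar the geometric mean of 5 arrays. In 9 panels all exposed arrays lie below all control arrays, and in the panel of Obp84a the lowest control array lies among the exposed ones.

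All 3 genes of the trichoid sensilla fell. For lush, Signal was 108.6, 91.1, 98.3, 100.6 and 85.3 after the 1st exposure and 92.0, 124.0, 65.2, 123.4 and 75.6 after the 2nd exposure, against 309.7, 243.9, 218.4, 263.9 and 320.9 in control flies. No exposed array reached the lowest control array, and the mean after the 1st exposure was 35.7% of that in control flies. The log2 fold change was -1.48 (limma, standard error 0.17, adjusted p = 0.00369) after the 1st and -1.53 after the 2nd exposure (adjusted p = 0.000329). By its p-value lush ranked 2 among 13809 probe sets after the 1st and 16 after the 2nd exposure.

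Obp83a and Obp83b encode close relatives that are made together with the lush protein in trichoid sensilla. Signal of Obp83a was 606.2, 474.3, 408.0, 461.5 and 361.4 after the 1st exposure and 397.2, 726.3, 241.7, 504.5 and 314.8 after the 2nd exposure, against 2005.2, 1733.3, 1311.5, 2003.5 and 2857.3 in control flies. The exposed arrays of Obp83a all lay below the control arrays, array 2 of the 2nd exposure being the highest of them. Its mean was 462 ± 92.2 after the 1st exposure, 437 ± 189 after the 2nd exposure and 1982 ± 565 in control flies (SD, n = 5 arrays each), and its log2 fold change was -2.08 after the 1st (limma, adjusted p = 0.0054) and -2.24 after the 2nd exposure (adjusted p = 0.00045). Signal of Obp83b was 393.2, 333.1, 233.8, 299.8 and 237.7 after the 1st exposure and 224.0, 448.5, 135.7, 255.1 and 147.7 after the 2nd exposure, against 1390.2, 1280.6, 797.9, 1406.9 and 1558.1 in control flies. Here too the groups did not overlap, and the log2 fold change was -2.10 after the 1st (adjusted p = 0.00729) and -2.51 after the 2nd exposure (adjusted p = 0.000352). After the 2nd exposure the mean of Obp83b was 18.8% of that in control flies.

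Obp69a, first described as a relative of moth pheromone-binding proteins, had Signal values of 365.6, 279.9, 247.4, 326.9 and 288.3 after the 1st exposure and 299.6, 381.3, 155.2, 273.1 and 184.9 after the 2nd exposure, against 910.3, 831.0, 653.8, 942.3 and 1100.6 in control flies. The exposed and the control arrays did not overlap. The log2 fold change was -1.55 (standard error 0.22, limma, adjusted p = 0.00729) after the 1st exposure and -1.83 (adjusted p = 0.000437) after the 2nd exposure. Obp28a, an abundant protein of basiconic sensilla, had Signal values of 117.0, 95.8, 69.3, 115.3 and 105.6 after the 1st exposure and 103.0, 171.1, 92.5, 155.7 and 91.1 after the 2nd exposure, against 374.2, 297.0, 211.3, 372.1 and 512.0 in control flies. All exposed arrays were again below the lowest control array, array 3, and the log2 fold change was -1.78 after the 1st (adjusted p = 0.00729) and -1.52 after the 2nd exposure (adjusted p = 0.00366).

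Obp84a, found in coeloconic sensilla, was dim and varied among arrays of a treatment. Its Signal was 36.5, 43.8, 20.7, 29.2 and 10.2 after the 1st exposure and 22.1, 44.0, 19.0, 24.4 and 52.6 after the 2nd exposure, against 109.8, 109.5, 43.6, 96.7 and 128.5 in control flies. Control array 3 lay within the range of the exposed arrays, and the other 4 control arrays lay above it. Its change of -1.87 on the log2 scale (standard error 0.42) did not pass after the 1st exposure (limma, adjusted p = 0.0838), and that of -1.62 passed narrowly after the 2nd exposure (adjusted p = 0.0474). It passed after the 1st exposure on the scale of log2(Signal + 50), where the change was -0.90 (adjusted p = 0.0156), and with a trend in the prior variance (adjusted p = 0.0376). The call after the 2nd exposure was lost in 18 of 27 alternatives, among them the replicate number as a block (adjusted p = 0.0601), with adjusted p of up to 0.106, and it held without control array 3 (log2 fold change -1.89, adjusted p = 0.0259).

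Obp19a and Obp19d belong to a cluster of genes for odorant-binding proteins, and Obp19d is also found in taste organs. Signal of Obp19a was 123.2, 70.2, 71.3, 91.8 and 64.3 after the 1st exposure and 79.3, 199.8, 55.0, 74.8 and 49.5 after the 2nd exposure, against 481.4, 356.8, 277.3, 494.5 and 604.4 in control flies. All exposed arrays were below all control arrays, with array 2 of the 2nd exposure the highest of the exposed. After the 1st exposure Obp19a had the steepest change of the 10 genes, -2.39 on the log2 scale with a standard error of 0.34 (adjusted p = 0.00729), and after the 2nd exposure it stood at -2.42 (adjusted p = 0.00146). The other probe set of Obp19a, whose suffix marks alternative transcripts of the same gene, had means of 48.9 ± 20.7 after the 1st exposure, 42.4 ± 32.6 after the 2nd exposure and 217 ± 46.7 in control flies (SD, n = 5 arrays each). Its groups did not overlap either, and its log2 fold change of -2.21 did not pass after the 1st exposure (adjusted p = 0.132), whereas that of -2.80 passed after the 2nd exposure (adjusted p = 0.0109).

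Obp19d had the smallest change of the 10 genes. Its Signal was 5126.7, 4888.1, 4551.7, 4864.1 and 5215.1 after the 1st exposure and 4568.9, 5430.6, 5156.8, 5242.8 and 5194.1 after the 2nd exposure, against 6504.5, 7046.2, 6300.0, 6801.3 and 8895.4 in control flies. The groups were separate, and the mean was 69.3% of that in control flies after the 1st and 72.0% after the 2nd exposure. The log2 fold change was -0.52 (standard error 0.09, limma, adjusted p = 0.0199) after the 1st exposure and -0.47 (adjusted p = 0.00884) after the 2nd exposure. The call after the 1st exposure was lost in 10 of 28 alternatives, with adjusted p from 0.0509 (without control array 4) to 0.109, among them without 1st exposure array 1, 2, 3 or 4 and without control array 2. The suffix of its probe set marks probes that may also match a related transcript.

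Both antennal secreted proteins outside the family fell as well. Signal of a10 was 337.9, 206.4, 135.6, 219.7 and 161.5 after the 1st exposure and 234.3, 342.8, 109.4, 262.5 and 135.5 after the 2nd exposure, against 934.0, 912.3, 655.2, 896.8 and 1060.1 in control flies. The highest exposed array stood well under the lowest control array, and the log2 fold change was -2.13 after the 1st (limma, adjusted p = 0.00729) and -2.15 after the 2nd exposure (adjusted p = 0.00156). Signal of Os-C was 273.2, 252.9, 157.3, 242.0 and 199.5 after the 1st exposure and 217.4, 404.2, 117.8, 230.2 and 93.7 after the 2nd exposure, against 968.2, 967.1, 695.7, 1032.4 and 1361.8 in control flies. The groups did not overlap, and the log2 fold change was -2.15 after the 1st (adjusted p = 0.0121) and -2.40 after the 2nd exposure (adjusted p = 0.00128). Without array 3 of the 1st exposure, and without arrays 1 and 3 together, the call of Os-C after the 1st exposure was lost (adjusted p up to 0.0752).

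**Figure D2:**
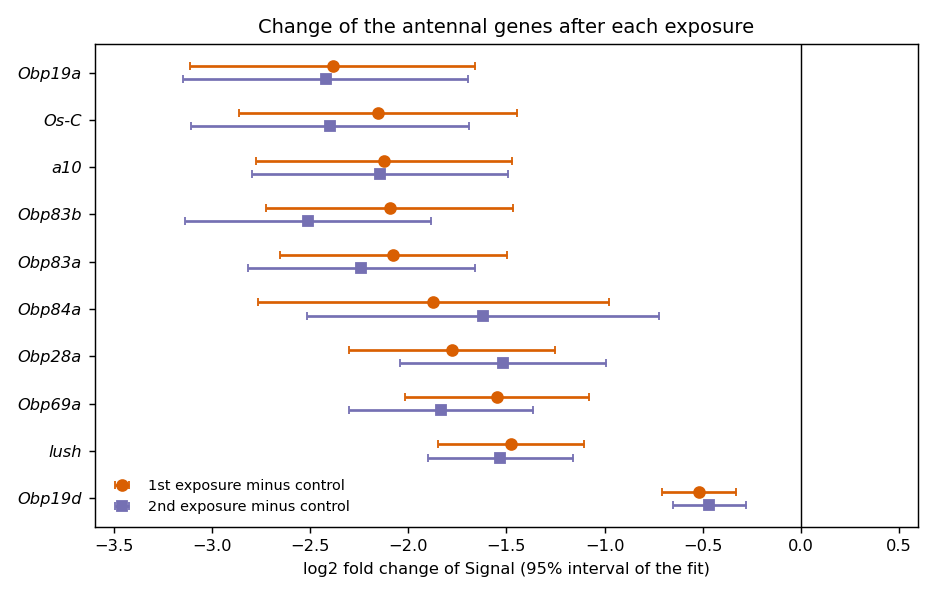
Log2 fold change of Signal against control flies for each gene after the 1st exposure (circles) and the 2nd exposure (squares), with the 95% interval of the limma fit (unadjusted). The values run from -2.51 to -0.47, and the intervals after the 1st and the 2nd exposure overlap for each gene.

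Between the exposures, none of the 10 genes passed the test (limma), at an adjusted p under 0.05 or at an unadjusted p under 0.05. A one-way analysis of variance on linear Signal, the model of the study's methods, passed 0 of 10 as well. Its pairwise contrasts were taken on the pooled error with Benjamini-Hochberg adjustment, without the study's Tukey tests and its exclusion of Absent calls. For comparison, 0.645% of all probe sets were lower and 1.12% higher after the 2nd than after the 1st exposure. The differences ran from -0.42 for Obp83b to 0.26 for Obp28a on the log2 scale, with adjusted p from 0.532 to 0.981, and 7 of them were below 0. The 95% intervals extended from -1.05 for Obp83b to 1.15 for Obp84a, and that for lush was -0.42 to 0.32 and that for Obp19d -0.13 to 0.24, and differences within the interval of a gene are not excluded. The moderated F over the 3 treatments passed for all 10 genes, where 3.61% of all probe sets passed. The spread within a treatment was widest after the 2nd exposure for 7 of the 10 genes. The highest over the lowest array of Os-C, for example, was 1.74 after the 1st exposure, 4.31 after the 2nd exposure and 1.96 in control flies, and that of lush was 1.27 after the 1st exposure, 1.90 after the 2nd exposure and 1.47 in control flies.

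Pairs of members that are neighbours in the genome were compared by the ratio of their Signal within each array, to ask whether they changed by different folds. Obp83a and Obp83b lie next to each other, and the log2 ratio of Obp83a to Obp83b was 0.63 ± 0.11 after the 1st exposure, 0.89 ± 0.15 after the 2nd exposure and 0.61 ± 0.18 in control flies (SD, n = 5 arrays each). The difference from control flies was 0.02 (standard error 0.09) after the 1st exposure and 0.27 (standard error 0.11) after the 2nd exposure, and neither passed an exact two-sided permutation test adjusted over 4 comparisons (adjusted p = 0.802 and 0.0741). Without control array 5, the difference after the 2nd exposure was 0.34 and passed (exact permutation test, adjusted p = 0.0423). Obp19a and Obp19d are separated by 2 genes of the same family, Obp19b and Obp19c. Their log2 ratio shifted by -1.87 (standard error 0.23) after the 1st exposure and by -1.96 (standard error 0.38) after the 2nd exposure, with no overlap between exposed and control arrays (adjusted p = 0.0159 for both, exact permutation test, raw p = 0.00794, the smallest that 5 against 5 arrays can give). With arrays paired by replicate number the same differences had an adjusted p of 0.0833, where 5 pairs cannot give a p under 0.0625 (exact permutation of signs). The genes in between did not pass the limma test. Obp19b averaged 645 ± 69.6 Signal after the 1st exposure, 796 ± 86.9 after the 2nd exposure and 859 ± 120.0 in control flies (log2 fold changes -0.41 and -0.11, adjusted p = 0.161 after the 1st and 0.681 after the 2nd exposure). Obp19c averaged 15.5 Signal after the 1st exposure, 37.1 after the 2nd exposure and 24.9 in control flies, near the filter.

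Within treatments, most of the 10 genes were high or low on the same arrays. The residuals of the 10 genes from their treatment means correlated at a median r of 0.820 over all 45 pairs (0.302 to 0.953, 15 arrays). Setting Obp19d and Obp84a apart was not planned. The other 8 genes had a median r of 0.888 over 28 pairs (0.780 to 0.953), whereas the 17 pairs with Obp19d or Obp84a had a median r of 0.386. These values are descriptions, since all genes of an array share its RNA pool and its scaling. After the 1st exposure all 10 genes were above their treatment mean on array 1, and 9 were below it on array 3, with median deviations of 0.36 and -0.27 on the log2 scale. After the 2nd exposure all 10 were above on array 2 and 9 below on array 3 (0.71 and -0.66). In control flies all 10 were above on array 5 and all 10 below on array 3 (0.40 and -0.52). Arrays 1 and 3 of the 1st exposure, which belong to the same set by all probe sets, thus lay at opposite ends for these genes. Arrays 4 and 5 of the 2nd exposure, also of 1 set, deviated in opposite directions (0.26 and -0.39). The shares of all probe sets given above are those of the fit to all 15 arrays, not of the 2 reduced fits that follow. Without arrays 1 and 3 of the 1st exposure, 7 of the 10 genes passed as lower after the 1st exposure (limma, adjusted p under 0.05). Obp19d, Obp84a and Os-C did not pass, and their log2 fold changes stayed negative. Without arrays 4 and 5 of the 2nd exposure, 9 passed as lower after the 2nd exposure. Obp84a did not pass, and its log2 fold change stayed negative.

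**Figure D3:**
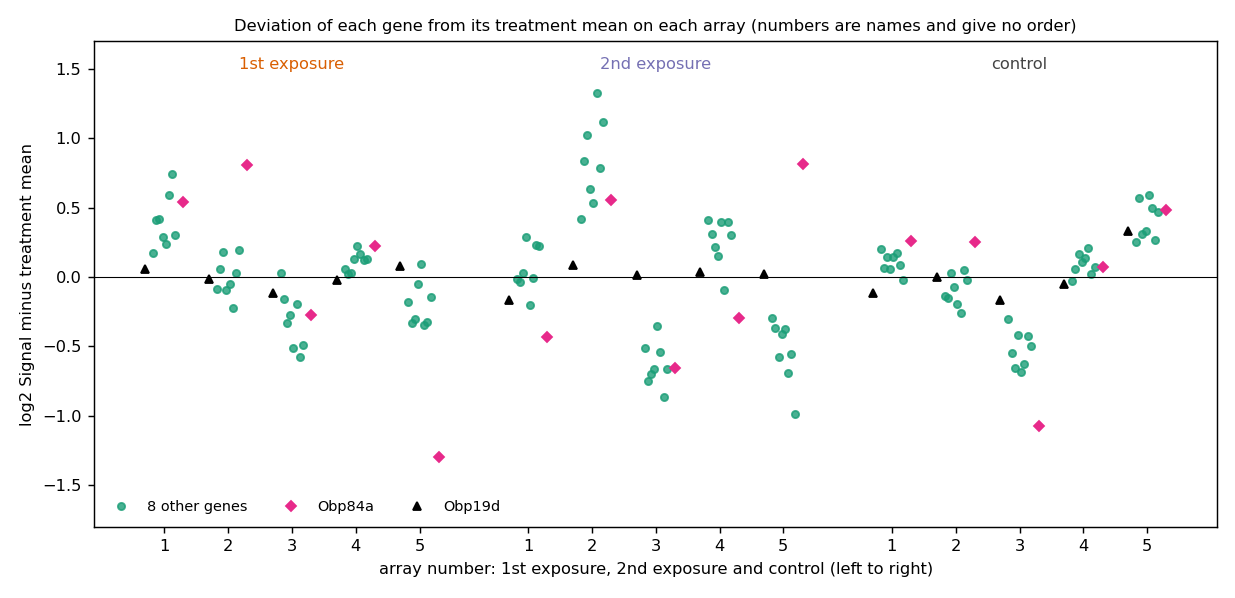
Deviation of log2 Signal from the mean of its treatment for each gene on each array; circles are 8 genes, diamonds Obp84a and triangles Obp19d. The circles of an array lie together, above 0 on array 2 of the 2nd exposure and below 0 on array 3 of the 2nd exposure and of control flies.

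By the correlation of log2 Signal with the mean profile of the 10 genes over 15 arrays, 15 of 13809 probe sets reached r of at least 0.9, and 9 of these were member probe sets. The mean contains the members themselves, and with the gene in question left out of it these 9 had r of 0.940 to 0.996. The 6 others were CG9497 (r = 0.950), OS9 (0.944), Antdh (0.944), Orco (0.943), GstE4 (0.937) and Jhedup (0.916), and each of them was lower than in control flies after both exposures (limma, adjusted p under 0.05). The call after the 1st exposure was lost in 10 of 28 alternatives for CG9497 (adjusted p up to 0.126), in 2 for GstE4 (up to 0.0772) and in 1 for OS9 (0.0519), with the nearest arrays averaged in all 3 genes. For CG9497 it was also lost without control array 1, 2 or 4 and without 1st exposure array 1, 3 or 4. GstE4, a glutathione S-transferase, averaged 81.4 ± 16.7 Signal after the 1st exposure, 98.2 ± 41.4 after the 2nd exposure and 346 ± 112 in control flies (SD, n = 5 arrays each). CG9497 averaged 292 ± 36.2 after the 1st exposure, 303 ± 47.6 after the 2nd exposure and 608 ± 154 in control flies. The next genes in this order, CG2519, CG13639, Der-2 and Sans, had r of 0.862 to 0.830 and log2 fold changes between -0.74 and -0.09. Since the profile contains the treatments, genes that fell after both exposures come first in such an order. By the residuals from the treatment means alone, 41 of 13809 probe sets reached r of at least 0.7 with the mean of the 10 genes, 9 of them member probe sets. These 9 had r of 0.846 to 0.976 with the gene in question left out of the mean. Orco (0.82), CG9497 (0.77) and Antdh (0.75) were among the 32 others, led by Arl6 (0.89), which had r = 0.44 over the 15 arrays with the treatments included. How many of 13809 unrelated probe sets would reach such r over 15 arrays by chance was not estimated. The 32 others are therefore a description only.

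Of 41 other genes of the odorant-binding protein family 29 were measured. After the 1st exposure 0 of 29 passed the limma test, where 0.362% of all probe sets passed, and a count of 0 is near that share. At an unadjusted p under 0.05 there were 7 of the 29, against 10.5% of all probe sets, and 0 passed the one-way analysis of variance on linear Signal, with a median log2 fold change of -0.08. After the 2nd exposure 2 of 29 passed, where 3.63% of all probe sets did. Obp22a, a protein of seminal fluid, was lower (log2 fold change -0.36, adjusted p = 0.0382, a call lost in 17 of 28 alternatives, among them the replicate block with adjusted p = 0.0611), Obp99d was higher (1.85, adjusted p = 0.00347), and the median was -0.06. Signal of Obp99d was 60.7 ± 14.8 after the 1st exposure, 211 ± 24.2 after the 2nd exposure and 64.0 ± 27.8 in control flies (SD, n = 5 arrays each).

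Among genes of the olfactory neurons, Orco, the coreceptor on which odorant receptors depend, was lower after both exposures. Its Signal was 61.1, 43.9, 28.2, 38.3 and 35.1 after the 1st exposure and 50.2, 60.7, 35.1, 60.8 and 32.6 after the 2nd exposure, against 96.6, 89.6, 86.2, 104.6 and 105.2 in control flies. The groups did not overlap, and the log2 fold change was -1.27 after the 1st (limma, adjusted p = 0.0199) and -1.06 after the 2nd exposure (adjusted p = 0.0128). The call after the 1st exposure was lost in 6 of 27 alternatives, namely without control array 1 or 4, without 1st exposure array 3, 4 or 5, and with the nearest arrays averaged (adjusted p up to 0.126). The part of olfactory neurons in the fall of the 10 genes was not tested. Of 57 odorant receptor genes, 15 were measured above the filter, and the 14 other than Orco did not pass after either exposure. Over all probe sets 0.362% passed after the 1st and 3.63% after the 2nd exposure, and a count of 0 is near these shares. The receptors were dim: Signal summed over the 57 genes was 805.4 to 991.5 after the 1st exposure, 847.4 to 1123.3 after the 2nd exposure and 1019.3 to 1169.5 in control flies. The sums after the 1st exposure thus lay below those of control flies, and those after the 2nd exposure overlapped them. These sums include Orco and the genes under the filter, and their difference was not tested. The median Signal of the arrays was also lower after the 1st exposure. Or67d, the receptor for cis-vaccenyl acetate that acts with the lush protein, was below the filter, with mean Signal of 5.98 after the 1st exposure, 12.6 after the 2nd exposure and 24.1 in control flies. Snmp1, a membrane protein of the same pathway, averaged 121 ± 20.7 Signal after the 1st exposure, 137 ± 14.7 after the 2nd exposure and 157 ± 16.6 in control flies (SD, n = 5 arrays each) and did not pass (log2 fold changes -0.39 and -0.19, adjusted p = 0.251 after the 1st and 0.472 after the 2nd exposure). Of 5 measured ionotropic and carbon dioxide receptor genes, Ir25a, a coreceptor, was lower after the 1st exposure (log2 fold change -0.91, adjusted p = 0.0449) and stood at -0.03 after the 2nd exposure, and its call was lost in 22 of 27 alternatives, among them the replicate block (adjusted p = 0.0607).

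Genes for enzymes and other proteins known from the antennal support cells, which also make odorant-binding proteins, moved in both directions in whole males. The part of the antenna in their Signal was not tested. Of 9 such genes measured, 2 passed as lower and 1 as higher after the 1st exposure, where 0.362% of all probe sets passed in either direction. After the 2nd exposure 3 passed as lower and 1 as higher, where 3.63% passed. At an unadjusted p under 0.05 (limma) there were 7 of the 9 after the 1st exposure, against 10.5% of all probe sets. Jhedup, an esterase, and Antdh, a dehydrogenase of the antenna, were lower after both exposures. Signal of Jhedup averaged 62.5 ± 18.2 after the 1st exposure, 93.1 ± 29.5 after the 2nd exposure and 243 ± 50.3 in control flies (SD, n = 5 arrays each), with a log2 fold change of -1.98 after the 1st (adjusted p = 0.00383) and -1.41 after the 2nd exposure (adjusted p = 0.00553). Signal of Antdh averaged 135 ± 27.0 after the 1st exposure, 138 ± 24.4 after the 2nd exposure and 280 ± 77.5 in control flies, with log2 fold changes of -1.04 (adjusted p = 0.0255, lost in 12 of 28 alternatives) and -0.998 (adjusted p = 0.00721). Pino, which is needed for normal behavior toward odors, was higher after both exposures (0.29 and 0.50, adjusted p = 0.0196 and 7.77e-05), and Ugt35B1, a glycosyltransferase, was lower after the 2nd (-0.34, adjusted p = 0.0197). The call of Pino after the 1st exposure was lost in 9 of 28 alternatives (adjusted p up to 0.091), among them the replicate block (0.0783), without control array 3 and without 1st exposure array 1, 3 or 4. That of Ugt35B1 was lost in 4 of 28 (up to 0.062), among them without control array 3. The antennal protein gene a5 had Signal values of 53.1, 49.1, 42.9, 45.2 and 2.1 after the 1st exposure and 53.9, 62.8, 53.2, 74.0 and 10.1 after the 2nd exposure, against 223.1, 213.6, 169.4, 262.0 and 278.0 in control flies. All its exposed arrays lay below all control arrays, but with array 5 far below the others in both exposures its log2 fold changes of -3.15 and -2.42 did not pass (adjusted p = 0.148 and 0.123). Without array 5 of the 1st exposure the change after the 1st exposure was -2.25 (adjusted p = 0.0764), and that after the 2nd exposure, unchanged at -2.42, passed (adjusted p = 0.00842). Without array 5 of the 2nd exposure it was -1.90 (adjusted p = 0.267). It passed in 3 of 28 alternatives after the 1st and 4 of 28 after the 2nd exposure, with log2(Signal + 50) at -1.68 after the 1st and -1.50 after the 2nd exposure (adjusted p = 0.000397 and 0.000236).

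**Figure D4:**
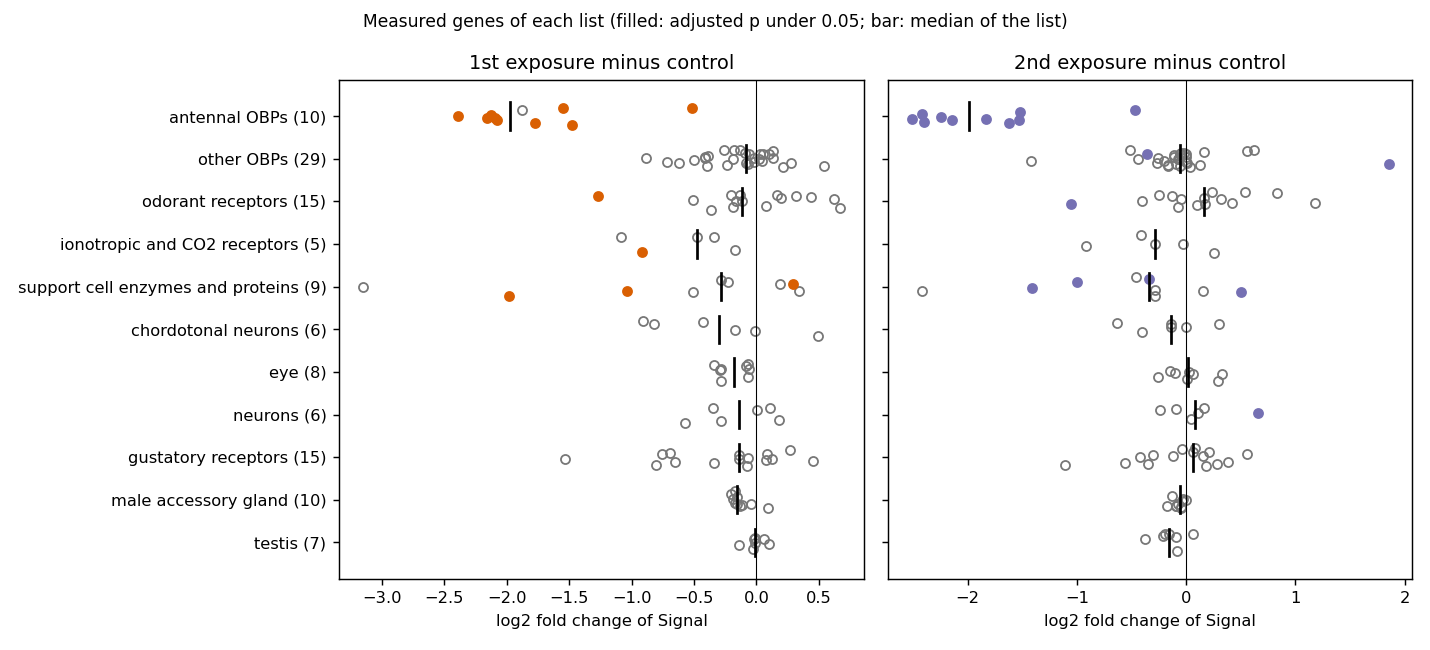
Log2 fold change of Signal after the 1st exposure (left) and the 2nd exposure (right) for the 10 antennal genes and for the measured genes of 10 other lists (number in brackets); filled points passed at an adjusted p under 0.05 and bars are medians. The median of the antennal genes is -1.97 and -1.99, and that of the other odorant-binding proteins -0.08 and -0.06.

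Markers of other cell types were set beside these changes. After the 1st exposure none of 6 chordotonal, 6 neuronal, 8 eye, 15 gustatory receptor, 10 accessory gland, 7 testis, 6 flight muscle and 4 fat body genes passed, while 1, 2, 3, 1, 2, 0, 2 and 0 of them had an unadjusted p under 0.05 (limma) and 0 passed the one-way analysis of variance on linear Signal. Over all probe sets tested 0.362% passed and 10.5% had an unadjusted p under 0.05, and 0 of these 62 genes is near the first share. After the 2nd exposure 1 of the 6 neuronal and 1 of the 4 fat body genes passed, and none of the other lists. Over all probe sets tested 3.63% passed, and the count among these 62 genes is near that share. The neuronal gene was nSyb, of the synapse, which was higher (log2 fold change 0.65, limma, adjusted p = 0.0451, lost in 20 of 28 alternatives, the replicate block with adjusted p = 0.0614 among them). The fat body gene was apolpp, a lipoprotein, which was lower (-0.40, adjusted p = 0.0135). The chordotonal genes mark neurons of the second antennal segment and other chordotonal neurons, so in whole males they do not measure the antenna alone. Their summed Signal was 675 to 916 after the 1st exposure, 697 to 831 after the 2nd exposure and 769 to 893 in control flies, and the ranges overlapped. The state of the second antennal segment was not tested. That of the eye genes was 33148 to 36462 after the 1st exposure, 36187 to 39267 after the 2nd exposure and 34395 to 46634 in control flies.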

How the data were processed

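RNA of pooled whole males was hybridised to 15 Affymetrix Drosophila 2.0 arrays, 5 per treatment. The array holds 18952 probe sets, for which the authors deposited Signal intensity, computed with MAS5 from perfect-match and mismatch probes and scaled per array; the genome build is not given in the sources used here, and no coordinates are printed. Hybridization controls (183 probe sets) were not tested, and 0 columns belonged to other samples. Names came from the platform annotation, which gives 1 gene for 13647, several for 402 and none for 4720 of 18769 probe sets. A further 33 were named from the study's list, and 85 symbols were updated through RefSeq, which also gave the neighbours of a gene. Probe sets with several genes were left unnamed.

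For the 13809 probe sets that averaged 20 Signal or more, log2 values were fitted in limma 3.58.1 (lmFit and eBayes, R 4.3.3) with 1 mean per treatment, and 3 contrasts and a moderated F were taken. Adjusted p-values are Benjamini-Hochberg values over all probe sets tested, with a threshold of 0.05. Ratios of neighbouring genes were compared by exact permutation with scipy 1.17.1. The steps were tested on simulated data. The 5 pools of a treatment are separate by the study's methods, and precision is limited by the 5 arrays of a treatment. The members and the lists of other genes were chosen with earlier results of these arrays known. All members are named, and of the lists those genes that passed after either exposure (the 6 with the largest change), Orco, Or67d, Snmp1, Pino, a5 and Antdh. The 10 genes most like the members' mean profile were also named, while Obp19b, Obp19c and Arl6 were named after their values were seen. Alternatives were quantile normalization, equalised medians, log2(Signal + 50), a one-way analysis of variance on linear Signal with pairwise contrasts on the pooled error, no filter or a minimum mean of 70, the replicate number as a block, arrayWeights, eBayes trend, 2 treatments at a time, the nearest arrays averaged, 2nd exposure arrays 4 and 5 left out, every array left out in turn and every probe set of a member. Leaving out 1st exposure arrays 1 and 3 together was added after seeing the data. Plots were drawn with matplotlib 3.10.9 and tables made with pandas 2.3.3, in Python 3.11.15.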

Additional observations from a re-analysis of the deposited data

Results flagged for a closer look

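In 93 groups of 5 arrays (the named genes by treatment), 8 had 1 array far from the other 4 relative to the range of the group, where chance gives about 1 in 20 groups. Among the antennal odorant-binding proteins this was Obp84a, whose control array 3 had a Signal of 43.6, with the next at 96.7. For a5, array 5 was far below the others both after the 1st exposure (2.1, next 42.9) and after the 2nd exposure (10.1, next 53.2). GstE4 was low on array 3 after the 1st exposure (52.8, next 84.4) and on control array 3 (158.1, next 347.8), and OS9 on array 3 after the 1st exposure (233.0, next 301.6). For Ir25a, array 5 of the 1st exposure was high (36.7, next 28.9) and array 2 of the 2nd exposure low (39.5, next 57.7).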

How the results depend on the processing

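No gene reversed its direction after either exposure. Of 279 values of the 10 genes after the 1st exposure under other settings, 258 kept their side of the threshold, 19 lost it and 2 gained it, and of 279 after the 2nd exposure, 261 kept it and 18, all of Obp84a, lost it. After the 1st exposure, averaging the nearest arrays left 1 of the 10 genes past the threshold. Leaving out 1 array at a time left 7 to 9 genes after the 1st and 9 or 10 after the 2nd exposure, and the other settings left 7 to 10 after the 1st and 9 or 10 after the 2nd exposure. Between the exposures 0 of 10 passed under every setting. With every probe set of a gene, 9 of 11 passed as lower after the 1st and 11 of 11 after the 2nd exposure. In that full fit 0.188% of all probe sets tested were lower after the 1st and 1.21% after the 2nd exposure. These shares do not apply to the fits with fewer arrays.

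The arrays are numbered 1 to 5 in each treatment. By the methods the 3 pools of a replicate came from the same starting groups, while the labels do not say that like numbers mark such a replicate. For like-numbered arrays the residuals had r of -0.073 to 0.098, and 3 of 15 arrays lay nearest to one of their own number. With the replicate number as a block, 9 genes passed after each exposure, and 32 instead of 50 probe sets in all passed after the 1st exposure and 321 instead of 499 by the moderated F. For the ratio of Obp19a to Obp19d, the replicate block (paired differences with signs flipped, an exact permutation test) gave the same -1.87 and -1.96, with adjusted p = 0.0833 for both, since 5 pairs cannot give a p under 0.0625. The ratio of Obp83a to Obp83b after the 2nd exposure passed without control array 5 (0.34) and was 0.22 to 0.34 when 1 array was left out. That of Obp19a to Obp19d passed after both exposures with each array left out in turn.

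Obp84a, at a mean Signal of 28.1 after the 1st exposure, 32.4 after the 2nd exposure and 97.6 in control flies, was closest to the filter of 20.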

Other observations

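In each treatment the array numbered 3 had the lowest median deviation of the 10 genes from their treatment means: -0.27 after the 1st exposure, -0.66 after the 2nd exposure and -0.52 in control flies on the log2 scale. The highest had numbers 1 (0.36), 2 (0.71) and 5 (0.40).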
